A study of Homo sapiens
Mus musculus with 2 samples.

Results

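Translation initiation and elongation factors are the proteins that start and carry forward protein synthesis on the ribosome. The genes described here are the rows of both deposited tables whose symbol begins with Eif and a digit from 1 to 6, or with Eef and 1 or 2. The rule found 66 of 25504 genes, 56 with Eif and 10 with Eef symbols, and used no measured value. Besides the factors themselves it takes in kinases, methyltransferases and repressors that act on them. Their transcripts were followed through 5 kinds of barcode in the colonic epithelium of 1 untreated wild-type C57Bl6 mouse, whose age is not given in the sources used here. Cells of the human leukaemia line K562 had been added to the cell suspension and were not analysed here. Both libraries, called replicates 1 and 2, hold different cells of that animal and were sequenced in a single run. Every p-value below rests on spread between these 2 libraries, which may be technical, and in large part on spread borrowed from other genes. None measures spread between animals.

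Translation begins when a small ribosomal subunit carrying initiator tRNA is brought to the capped end of an mRNA and scans to the start codon. The eIF2 complex delivers the tRNA, eIF3 holds the subunit and the mRNA together, the eIF4 factors bind the cap and unwind the leader, and eIF2B recharges eIF2 with GTP, a step that kinases of eIF2 block under stress. During elongation eEF1A brings each aminoacyl-tRNA, the other eEF1 subunits recharge eEF1A, and eEF2 moves the ribosome along. In the colon, cells are made by division near the crypt base, deep crypt secretory cells and goblet cells secrete, and colonocytes absorb at the surface and are shed.

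Replicate 1 held 1738 barcodes with 8602490 unique molecular identifiers (UMIs, each marking 1 captured molecule) and replicate 2 held 664 barcodes with 3951918. Clusters were built without the 66 factor genes and named by markers. The progenitor-like class (with Cdca7 and Stmn1 among its leading genes) held 172 and 65 barcodes in replicates 1 and 2, the cycling-like class (Top2a, Ube2c) 88 and 39, the deep crypt secretory-like class (Reg4, Txndc5) 270 and 74, the goblet-like class (Clca1, Zg16) 276 and 74, and the colonocyte-like class (Car4, Aqp8) 545 and 155. The cycling-like cluster also had the highest progenitor marker score, 1.54 against 1.24 in the progenitor-like cluster, and a deep crypt secretory score of 1.27. Median mitochondrial shares ran from 3.03% to 6.55% over the classes in replicate 1 and from 6.15% to 11.4% in replicate 2, with 5.99% and 11.4% in colonocyte-like barcodes. Values are given per library as CPM, the UMIs of a gene per 1000000 UMIs of all barcodes of that class and library. Progenitor markers summed to 1737 and 1103 CPM in progenitor-like barcodes, overlapping with 1383 and 1283 in deep crypt secretory-like ones. Colonocyte markers summed to 11114 and 13574 CPM in progenitor-like barcodes. They summed to 4111 to 5216 CPM in cycling-like and deep crypt secretory-like barcodes and to 66467 and 57545 in colonocyte-like ones. The 10 sums of UMIs ran from 343577 to 2741357.

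Together the 66 factors took 1.42% of the UMIs of progenitor-like barcodes in replicate 1 (95% exact binomial interval 1.40% to 1.44%, counting error only) and 1.33% in replicate 2 (1.30% to 1.36%). The shares were 1.53% and 1.56% in cycling-like and 1.38% and 1.496% in deep crypt secretory-like barcodes. These 3 classes are called the crypt base classes below for short, and position in the crypt was not measured. They were 0.821% and 0.821% in goblet-like and 0.718% and 0.690% in colonocyte-like barcodes. Both libraries of the 3 crypt base classes thus lay above both libraries of goblet-like and colonocyte-like barcodes, with no overlap. Without Eef1a1, the member with the most UMIs, the shares were still 0.972% to 1.18% in the 3 crypt base classes and 0.590% to 0.684% in the other two. Ribosomal protein genes, taken by symbol (Rpl or Rps and a digit), moved alongside. They went from 8.24% to 9.99% of UMIs in the crypt base classes to 4.09% and 4.39% in goblet-like and 2.06% and 2.49% in colonocyte-like barcodes. The symbol rule also takes in other genes, such as Rps19bp1 and Rps2-ps6. A share is relative to all other transcripts of the class, and goblet markers alone summed to 185988 and 158657 CPM in goblet-like barcodes.

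**Figure D1:**
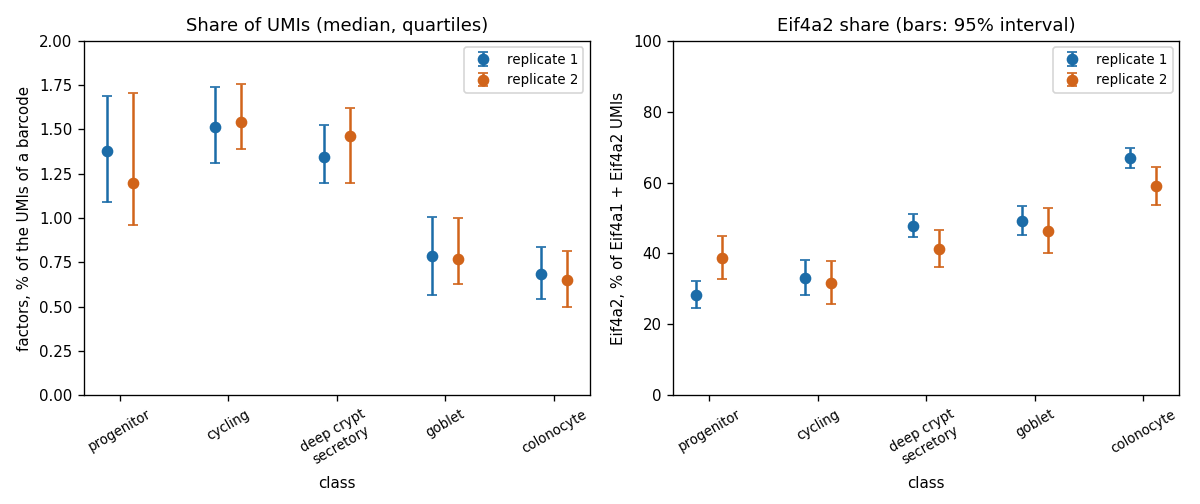
Left, share of a barcode's UMIs (%) that came from the 66 factors, by class, with the median as a point and the quartiles as bars for each library. The medians were 1.20% to 1.54% in the progenitor-like, cycling-like and deep crypt secretory-like classes and 0.652% to 0.786% in the goblet-like and colonocyte-like classes. Right, UMIs of the helicase gene Eif4a2 as % of those of Eif4a1 and Eif4a2 together, with 95% exact binomial intervals.

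The test compared each class with the mean of the other 4 (edgeR quasi-likelihood test, library as block, Benjamini-Hochberg adjustment over 8100 genes, called at an adjusted p under 0.05). Its log2 fold changes use TMM scaling factors, which CPM values do not. These comparisons share their sums, so that a gene low in one class is by arithmetic higher elsewhere. Of 65 factors tested, 48 were called in colonocyte-like barcodes, 39 lower and 9 higher, where 39.5% of all tested genes were called (18.5% lower and 21% higher). Their median log2 fold change was -0.71, against 0.04 over all tested genes. In progenitor-like barcodes 17 factors were higher and 3 lower (11.9% of all genes called, 6.62% higher and 5.23% lower), with a median of 0.28 against 0.02. In cycling-like barcodes 24 were higher and 2 lower (18.9% of all genes, 10.2% higher and 8.78% lower), with a median of 0.39 against -0.06. In deep crypt secretory-like barcodes 23 were higher and 2 lower (18.6% of all genes, 10.8% higher and 7.81% lower), with a median of 0.31 against 0.06. In goblet-like barcodes 3 were higher and 10 lower (18.5% of all genes, 11.6% higher and 6.9% lower), with a median of -0.23 against 0.04. The number called fell without the library block to 4 in progenitor-like, 10 in cycling-like, 11 in deep crypt secretory-like and 3 in goblet-like barcodes, and from 48 to 40 in colonocyte-like barcodes. Without scaling factors the all-gene median moved to -0.31 in colonocyte-like and -0.28 in goblet-like barcodes and to between 0.21 and 0.27 in the others, and no called factor changed direction.

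**Figure D2:**
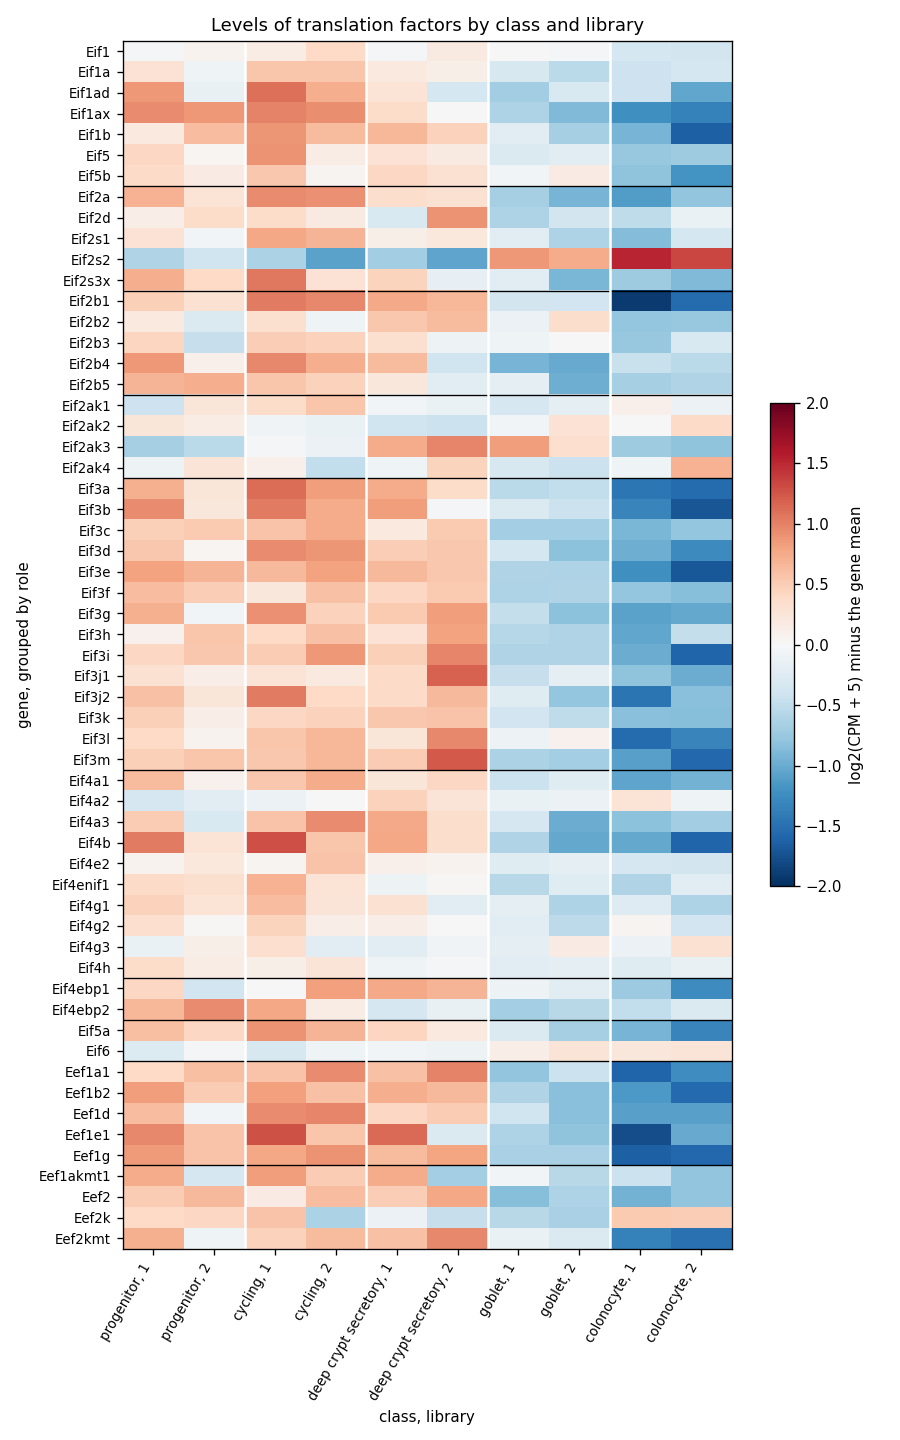
Level of the 58 factors with at least 100 UMIs over the 10 sums, as log2(CPM + 5) minus the mean of the gene, for each class and library (columns) and by role (rows, divided by lines). Red is above and blue below the mean of the gene, and colours saturate at 2. Most rows are red in the first 6 columns and blue in the colonocyte columns, and Eif2s2 has the opposite pattern.

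By raw order, 31 factors had lower CPM in both libraries of colonocyte-like barcodes than in any library of any other class, which held for 15.4% of all tested genes. A single factor, Eif2s2, lay above all other classes in both libraries, which held for 8.14% of all tested genes. The remaining 34, which include the untested Eif5a2, lay neither below all nor above all other classes in both libraries. Of the 31, 13 belonged to the eIF3 complex, 5 to the genes grouped here as the eEF1 complex, Eef1e1 included, and 5 to the scanning factors. Goblet-like barcodes enter this order as 1 class. Their larger cluster alone overlapped with colonocyte-like barcodes for some of the 31.

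The factors that find the start codon split into some that were lower in colonocyte-like barcodes and some that differed little. Eif1, which guards start codon choice, stood at 565 and 604 CPM in progenitor-like, 641 and 757 in cycling-like, 567 and 654 in deep crypt secretory-like, 581 and 561 in goblet-like and 449 and 443 in colonocyte-like barcodes. Its colonocyte-like values were below the rest, but the scaled difference was small (log2 fold change -0.11 ± 0.12, standard error, here and below; adjusted p = 0.52). It was not called in goblet-like barcodes either, at 0.31 ± 0.12 (adjusted p = 0.051), and was -0.0058 there without scaling factors. Eif1ax, the X-linked gene of eIF1A, stood at 127 and 119 CPM in progenitor-like, 131 and 125 in cycling-like, 82.7 and 62.9 in deep crypt secretory-like, 39.3 and 32.1 in goblet-like and 24.1 and 21.7 in colonocyte-like barcodes. No neighbouring groups overlapped apart from progenitor-like and cycling-like barcodes. The fold was 1.01 ± 0.18 in progenitor-like barcodes (adjusted p = 1.1e-05), 0.95 ± 0.20 in cycling-like barcodes and -1.46 ± 0.21 in colonocyte-like barcodes (adjusted p = 6.6e-09). Its autosomal relative Eif1a was not called in any of these comparisons. Eif1a made up 40.3% and 35.4% of the UMIs of both genes in progenitor-like and 68.0% and 71.2% in colonocyte-like barcodes. The 95% intervals of these shares were 33.5% to 47.4% and 25.9% to 45.8%, against 61.1% to 74.3% and 59.4% to 81.2%. Reads of such similar genes may be assigned to either copy, and the counting method is not given in the sources used here.

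Eif1b, a close relative of Eif1, had 19 and 15 UMIs in progenitor-like, 21 and 10 in cycling-like, 45 and 14 in deep crypt secretory-like, 21 and 5 in goblet-like and 18 and 2 in colonocyte-like barcodes. In CPM this was 6.57 and 2.06 in colonocyte-like barcodes and 8.91 to 35.3 elsewhere (log2 fold change -1.75 ± 0.36, adjusted p = 2.5e-05). The 2 UMIs of replicate 2 carry part of this size, and the fold from replicate 2 alone was -2.96. Of the 7 genes grouped here as scanning factors 5 were lower in colonocyte-like barcodes and none higher. These also included Eif5, the GTPase activator of eIF2, Eif5b, which joins the subunits, and Eif1ad, which is grouped here by its symbol. Their folds ran from -0.91 to -0.61. These 3 are named after their values were seen, and without the block the calls of Eif5 and Eif1ad were lost (adjusted p = 0.061 and 0.12).

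The subunits of eIF2 did not move together. Eif2s2, the beta subunit, stood at 425 and 491 CPM in progenitor-like, 417 and 306 in cycling-like, 398 and 311 in deep crypt secretory-like, 1185 and 1094 in goblet-like and 1870 and 1649 in colonocyte-like barcodes. Goblet-like values lay above all those of the 3 crypt base classes, and colonocyte-like values lay above goblet-like ones. Its log2 fold change was 2.14 ± 0.10 in colonocyte-like (adjusted p = 1.5e-33) and 1.32 ± 0.11 in goblet-like barcodes (adjusted p = 1.9e-18). It was -0.83 ± 0.13 in progenitor-like, -1.38 ± 0.14 in cycling-like and -1.24 ± 0.13 in deep crypt secretory-like barcodes. Within colonocyte-like barcodes the gene stood between 1339 and 2015 CPM in all 3 clusters and both libraries. Its partners went the other way in colonocyte-like barcodes. Eif2s1, the alpha subunit that stress kinases phosphorylate, had a fold of -0.62 ± 0.23 (adjusted p = 0.026), and Eif2s3x, the X-linked gamma subunit, -0.74 ± 0.16 (adjusted p = 8.4e-05). Eif2s3x fell from 222 and 175 CPM in progenitor-like to 78.8 and 69.2 in colonocyte-like barcodes, and overlapped there with the 113 and 67.7 of goblet-like barcodes. Both are named after their values were seen, and the Eif2s1 call was lost without the library block (adjusted p = 0.12).

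Eif2a, which can deliver initiator tRNA on its own, stood at 81.6 and 59.7 CPM in progenitor-like, 97.6 and 96.0 in cycling-like, 62.9 and 61.1 in deep crypt secretory-like, 28.8 and 23.2 in goblet-like and 19.7 and 25.8 in colonocyte-like barcodes. The crypt base classes lay above the other two, which overlapped with each other. Its fold was 0.94 ± 0.22 in cycling-like (adjusted p = 0.00063) and -1.07 ± 0.22 in colonocyte-like barcodes (adjusted p = 3.6e-05). Eif2d, another tRNA-delivering factor, and Eif2s3y, the Y-linked gamma subunit with 37 UMIs over the 10 sums, were not called anywhere.

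Among the 5 subunits of eIF2B, Eif2b1 (alpha) had the largest difference. It stood at 65.7 and 57.7 CPM in progenitor-like, 99.2 and 93.1 in cycling-like, 80.8 and 75.5 in deep crypt secretory-like, 34.1 and 33.9 in goblet-like and 8.39 and 12.4 in colonocyte-like barcodes. The ranges of the 5 classes did not overlap, but the larger of 2 goblet-like clusters, at 17.5 and 12.1 CPM, reached the colonocyte-like values and the smaller stood at 55.1 and 94.6. The fold was -2.35 ± 0.26 in colonocyte-like barcodes (adjusted p = 5.6e-13), and 1.11 ± 0.22 in cycling-like ones (adjusted p = 5.3e-05). Eif2b4 (delta) differed elsewhere, with 5.90 and 5.35 CPM in goblet-like against 10.8 to 35.3 in the 3 crypt base classes and 10.2 and 9.29 in colonocyte-like barcodes. Its goblet fold of -1.54 ± 0.42 (adjusted p = 0.0037) rests on 9 and 3 UMIs there and was not called with DESeq2 (adjusted p = 0.060) or at equal depth (adjusted p = 0.38). Eif2b5 (epsilon), the catalytic subunit, stood at 44.5 and 46.2 CPM in progenitor-like and 14.6 and 15.5 in colonocyte-like barcodes, a difference of 1.16 ± 0.33 (adjusted p = 0.0037; 0.060 with DESeq2). In colonocyte-like barcodes 3 of the 5 subunits were called lower and none higher.

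Of the 4 kinases that phosphorylate eIF2, Eif2ak3 was the one with a fold of at least 2. Its product PERK senses unfolded protein in the endoplasmic reticulum. It stood at 72.8 and 86.3 CPM in deep crypt secretory-like and 78.0 and 53.5 in goblet-like barcodes, against 24.4 and 26.9 in progenitor-like, 40.4 and 37.8 in cycling-like and 23.3 and 21.7 in colonocyte-like barcodes. Both secretory classes lay above the other 3 in every library and overlapped with each other. The fold was 1.24 ± 0.21 in goblet-like (adjusted p = 1e-06) and 0.99 ± 0.21 in deep crypt secretory-like barcodes (adjusted p = 8.9e-05). It was -1.09 ± 0.27 in progenitor-like (adjusted p = 0.0024) and -0.72 ± 0.23 in colonocyte-like barcodes (adjusted p = 0.0079; the last call was lost with DESeq2). Between the secretory classes the difference was -0.20 ± 0.24 (adjusted p = 0.68). Both goblet-like clusters had similar levels, 78.4 and 53.2 CPM in the larger and 77.5 and 54.1 in the smaller. Named after their values were seen, Eif2ak2 (PKR, which senses double-stranded RNA) and Eif2ak4 (GCN2, which senses uncharged tRNA) were higher in colonocyte-like barcodes by 0.60 ± 0.18 and 0.72 ± 0.27. Both of these calls were lost without scaling factors (adjusted p = 0.29 and 0.28). Eif2ak1, the haem-sensing kinase, was not called in any comparison.

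**Figure D3:**
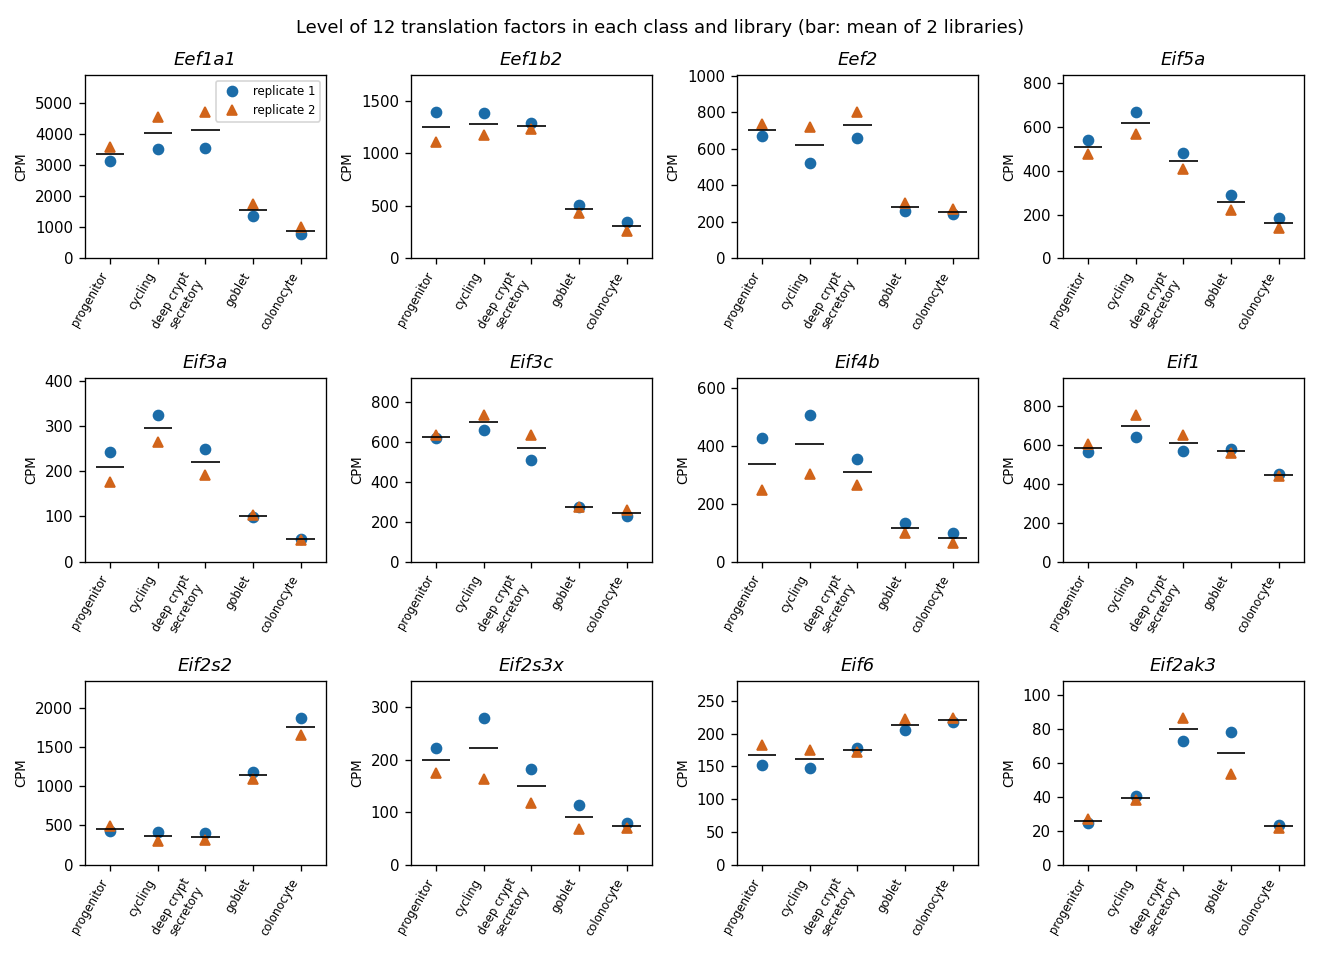
CPM of 12 factors in each class, with circles for replicate 1, triangles for replicate 2 and a bar for their mean, on linear axes that start at 0. Eef1a1, Eef1b2, Eif3a, Eif3c and Eif5a lie highest in the 3 crypt base classes and lowest in colonocyte-like barcodes, Eif2s2 has the opposite order, and Eif2ak3 lies highest in both secretory classes.

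All 14 genes of the eIF3 complex were lower in colonocyte-like barcodes. Their folds ran from -1.94 to -0.67 with a median of -1.22, and 10 of the 14 were lower by at least 2-fold, where 26.1% of all tested genes were called with a change of that size in either direction. The count was 14 under each alternative run except DESeq2, with 13. Eif3a, the scaffold subunit, stood at 243 and 175 CPM in progenitor-like, 325 and 265 in cycling-like, 248 and 191 in deep crypt secretory-like, 98.9 and 103 in goblet-like and 50.7 and 47.5 in colonocyte-like barcodes. Crypt base, goblet-like and colonocyte-like values formed 3 separate levels. The fold was -1.62 ± 0.17 in colonocyte-like (adjusted p = 5.1e-14) and 0.95 ± 0.15 in cycling-like barcodes (adjusted p = 3.9e-07). Eif3c, another core subunit, stood at 617 and 635, 659 and 736, 508 and 633, 274 and 274, and 231 and 257 CPM in the same order of classes. Its goblet-like and colonocyte-like values differed less, and the colonocyte fold was -0.72 ± 0.13 (adjusted p = 1.5e-06). The larger goblet-like cluster alone, at 193 and 223 CPM, lay below colonocyte-like barcodes.

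Eif3b, the other scaffold subunit, stood at 17.9 and 12.4 CPM in colonocyte-like, 41.9 and 37.4 in goblet-like and 50.3 to 113 in the crypt base classes (colonocyte fold -1.85 ± 0.24, adjusted p = 9e-11). Eif3l stood at 9.85 and 12.4 CPM in colonocyte-like barcodes and at 35.4 to 79.1 in all other classes, with goblet-like values of 35.4 and 41.0 close to those of progenitor-like barcodes, 52.0 and 40.4. Its fold was -1.85 ± 0.27 in colonocyte-like barcodes (adjusted p = 5.6e-09), and it was not called in goblet-like ones (0.36 ± 0.24, adjusted p = 0.34). Eif3e, a subunit of the outer part of the complex, stood at 39.0 and 26.8 CPM in colonocyte-like, 62.9 and 62.4 in goblet-like and 144 to 175 in the crypt base classes (colonocyte fold -1.52 ± 0.19, adjusted p = 3.2e-11).

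The colonocyte fold was -1.22 ± 0.19 for Eif3i, -1.13 ± 0.20 for Eif3g, -1.21 ± 0.22 for Eif3d, which can bind caps, and -1.43 ± 0.25 for Eif3m. Eif3i stood at 43.8 and 26.8 CPM there, Eif3g at 31.0 and 32.0, Eif3d at 25.2 and 19.6 and Eif3m at 16.4 and 10.3. All of these values lay below those of the other classes taken whole. The larger goblet-like cluster alone overlapped with them for Eif3i (29.2 and 38.7 CPM), Eif3g (23.4 and 41.1) and Eif3d (23.4 and 19.4). For Eif3m that cluster lay above them, at 18.7 and 19.4 CPM. The near-identical copies Eif3j1 and Eif3j2 had 21 and 6 UMIs, and 10 and 8 UMIs, in colonocyte-like barcodes, with folds of -1.10 ± 0.34 and -1.94 ± 0.37, and reads may be divided between them. The Eif3j1 call was lost with DESeq2 (adjusted p = 0.061). Eif3f, Eif3h and Eif3k, named after their values were seen, completed the group with folds from -0.75 to -0.67. Eif3h was the member of the complex whose colonocyte-like values, 60.6 and 91.9 CPM, overlapped with another class. In the larger goblet-like cluster Eif3h stood lower still, at 56.1 and 55.7 CPM.

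In the other directions, 11 of 14 eIF3 genes were higher in deep crypt secretory-like (10.8% of all genes), 8 in cycling-like (10.2%) and 5 in progenitor-like barcodes (6.62%), and none was lower. Without the block these counts were 3, 2 and 0. In goblet-like barcodes 2 of 14 were lower (6.9% of all genes), Eif3c (-0.52 ± 0.13) and Eif3f (-0.46 ± 0.17). That count was 0 without the block, 10 without scaling factors, 9 without doublet removal and 9 without the smaller goblet-like cluster. Eif3m and Eif3j1 reached their highest CPM in replicate 2 of deep crypt secretory-like barcodes, at 101 and 44.9, against 59.6 and 23.8 in replicate 1, so that these libraries differed within the class.

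Of the 13 eIF4 factors 3 were lower and 3 higher in colonocyte-like barcodes, with a median fold of -0.21, numbers near the shares of all tested genes (18.5% lower and 21% higher). Eif4b, which stimulates the helicase, stood at 425 and 248 CPM in progenitor-like, 506 and 303 in cycling-like, 353 and 262 in deep crypt secretory-like, 133 and 98.0 in goblet-like and 98.9 and 64.0 in colonocyte-like barcodes. Replicate 1 was higher than replicate 2 in every class, and the crypt base classes did not overlap with the other two. The fold was -1.33 ± 0.15 in colonocyte-like (adjusted p = 2.7e-12) and 0.86 ± 0.14 in cycling-like barcodes (adjusted p = 4.7e-07). Eif4a1, the main helicase, stood at 442 and 298, 410 and 477, 334 and 379, 208 and 237, and 133 and 144 CPM in the same order of classes, with a colonocyte fold of -0.93 ± 0.14 (adjusted p = 4e-08). Its relative Eif4a2, named after its values were seen, stood at 175 and 189, 204 and 221, 306 and 266, 202 and 205, and 270 and 208 CPM. Eif4a2 was lower in progenitor-like barcodes (-0.57 ± 0.15, adjusted p = 0.0057) and higher in colonocyte-like ones (0.50 ± 0.13, adjusted p = 0.0011), and both calls were lost without scaling factors (adjusted p = 0.060 and 0.32) and without the block (0.24 and 0.090). As a share of both genes, which needs no scaling, Eif4a2 made up 28.4% and 38.7% in progenitor-like, 33.2% and 31.7% in cycling-like, 47.9% and 41.2% in deep crypt secretory-like, 49.3% and 46.4% in goblet-like and 67.0% and 59.1% in colonocyte-like barcodes. The colonocyte-like intervals, 64.1% to 69.7% and 53.6% to 64.3%, lay above those of every other class in both libraries.

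Eif4g2, a scaffold that does not bind the cap-binding protein, was among the 10 factors with the highest mean CPM and was not called in any comparison. It stood at 600 and 485, 648 and 518, 522 and 478, 404 and 328, and 494 and 363 CPM from progenitor-like to colonocyte-like barcodes, with folds from -0.16 to 0.16. The canonical scaffold Eif4g1, the helicase partner Eif4h and the cap-binding homologue Eif4e2 were also not called in any comparison. The cap-binding protein gene Eif4e itself had 36 UMIs over the 10 sums, too few for a test of a moderate difference. Eif4e3, a homologue of it, had 17 and 10 UMIs in progenitor-like barcodes and 0 to 9 elsewhere, and differed between progenitor-like and colonocyte-like barcodes by 1.57 ± 0.53 (adjusted p = 0.015). That call was lost with DESeq2 (adjusted p = 0.21), without the block (0.068) and at equal depth (0.26). Eif4e1b, the oocyte-type homologue, had 17 and 14 UMIs in colonocyte-like barcodes and 0 to 5 in each other sum, a fold of 2.07 ± 0.52 (adjusted p = 0.00038), and 2.86 from replicate 2 alone. These sums differ in depth. In CPM the colonocyte-like libraries overlapped with the deep crypt secretory-like ones, at 0.662 and 7.19, and the progenitor-like ones stood at 5.30 and 5.77.

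The 4E-binding proteins hold the cap-binding protein inactive until mTORC1 phosphorylates them. Eif4ebp3 had 26 UMIs over the 10 sums, with 3 and 2 in progenitor-like, 0 and 1 in cycling-like, 2 and 0 in deep crypt secretory-like, 0 and 0 in goblet-like and 16 and 2 in colonocyte-like barcodes. In CPM the colonocyte-like libraries, 5.84 and 2.06, overlapped with the progenitor-like ones, 3.18 and 3.85. It was called higher in colonocyte-like barcodes (adjusted p = 0.0012). No fold is given for so few UMIs, and DESeq2 returned no adjusted p. The other members of this group are named after their values were seen. Eif4ebp1 was lower in colonocyte-like barcodes (-1.02 ± 0.26, adjusted p = 0.00061) and higher in deep crypt secretory-like ones (0.81 ± 0.23, adjusted p = 0.0044), and Eif4ebp2 was higher in progenitor-like barcodes (0.89 ± 0.23, adjusted p = 0.0029).

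Eif5a, the hypusine-bearing factor that helps difficult peptide bonds form, stood at 542 and 475 CPM in progenitor-like, 671 and 570.5 in cycling-like, 481 and 408 in deep crypt secretory-like, 290.3 and 223 in goblet-like and 185 and 139 in colonocyte-like barcodes. Cycling-like, goblet-like and colonocyte-like values each stood apart from the other classes. Within goblet-like barcodes, the larger cluster alone (219 and 167 CPM) overlapped with colonocyte-like barcodes. The fold was 0.67 ± 0.13 in cycling-like (adjusted p = 1.8e-05) and -1.07 ± 0.14 in colonocyte-like barcodes (adjusted p = 1.2e-10). Eif5a2, its paralogue, was the factor under the filter of 20 UMIs, with 17 UMIs over the 10 sums and 29 in all barcodes. Eif6, which keeps large ribosomal subunits from joining, went the other way and is named after its values were seen. It stood at 153 and 183, 148 and 175, 179 and 173, 205 and 223, and 218 and 224 CPM, with goblet-like and colonocyte-like values above the rest. Within colonocyte-like barcodes Eif6 stood at only 164 and 120 CPM in the cluster with a median of 1782 UMIs, and at 191 to 257 in the others. Its fold was 0.67 ± 0.13 in colonocyte-like (adjusted p = 1.7e-05) and 0.57 ± 0.14 in goblet-like barcodes (adjusted p = 0.0013; 0.18 without scaling factors).

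Of the 6 genes grouped here by symbol as the eEF1 complex 5 were lower in colonocyte-like barcodes, each by at least 2-fold. They include Eef1e1, whose product is bound to the tRNA synthetase complex. Eef1a1, which carries aminoacyl-tRNA to the ribosome, stood at 3115 and 3591 CPM in progenitor-like, 3515 and 4552 in cycling-like, 3543 and 4716 in deep crypt secretory-like, 1373 and 1753 in goblet-like and 777 and 998 in colonocyte-like barcodes. The crypt base classes overlapped with each other, and goblet-like and colonocyte-like barcodes each lay apart as classes. The larger goblet-like cluster alone, at 810 and 1326 CPM, overlapped with colonocyte-like barcodes, and the smaller one stood at 2090 and 2947. Its log2 fold change was -1.44 ± 0.11 in colonocyte-like (adjusted p = 2.9e-20), -0.45 ± 0.11 in goblet-like (adjusted p = 0.00061; 0.31 without the block) and 0.83 ± 0.10 in deep crypt secretory-like barcodes (adjusted p = 1.5e-11). This gene has processed pseudogenes, and how reads from them were counted is not given in the sources used here. Eef1b2, the exchange factor subunit, stood at 1398 and 1107, 1381 and 1173, 1287 and 1229, 512 and 433, and 349 and 263 CPM in the same order of classes (colonocyte fold -1.33 ± 0.13, adjusted p = 3.4e-16). Eef1g, the gamma subunit, stood at 911 and 751, 861 and 943, 778 and 869.9, 318 and 317, and 158 and 166 CPM (colonocyte fold -1.69 ± 0.14, adjusted p = 1.6e-19). Both genes had 3 levels by class like Eef1a1. In the larger goblet-like cluster Eef1b2 stood at 274 and 319 CPM, within the range of colonocyte-like barcodes, and Eef1g at 178 and 240, while the smaller cluster had 815 and 750.2 and 496 and 534.

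Eef1d, the delta subunit, was at its highest in cycling-like barcodes, with 116 and 119 CPM, and stood at 24.8 and 24.8 in colonocyte-like ones. Its fold was 0.93 ± 0.21 in cycling-like (adjusted p = 0.00028) and -1.20 ± 0.21 in colonocyte-like barcodes (adjusted p = 1.5e-06). Eef1e1, a small protein bound to the tRNA synthetase complex, had 5.84 and 13.4 CPM in colonocyte-like and 19.0 and 16.04 in goblet-like barcodes. In deep crypt secretory-like barcodes its libraries differed, at 76.1 and 25.2 CPM. The colonocyte fold was -2.14 ± 0.31 (adjusted p = 8.6e-09). Eef1a2, the muscle and nerve isoform, had 37 UMIs over the 10 sums and was not called in any comparison.

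Eef2, the translocase, stood at 669 and 735 CPM in progenitor-like, 523 and 719 in cycling-like, 661 and 803 in deep crypt secretory-like, 257 and 305 in goblet-like and 241 and 268 in colonocyte-like barcodes. Goblet-like and colonocyte-like values overlapped and lay below the rest. The larger goblet-like cluster alone, at 160 and 230 CPM, lay below both colonocyte-like values, and the smaller one stood at 380 and 514. The fold was -0.74 ± 0.13 in colonocyte-like (adjusted p = 7.2e-07) and -0.61 ± 0.13 in goblet-like barcodes (adjusted p = 0.00017; 0.11 without the block). Its inhibitory kinase, Eef2k, named after its values were seen, stood at 58.0 and 56.8 CPM in colonocyte-like barcodes and at 24.9 and 23.2 in goblet-like ones. The progenitor-like values, 53.0 and 53.9, were close to the colonocyte-like ones, and the cycling-like libraries differed, at 60.5 and 23.3. The colonocyte fold of Eef2k was 0.99 ± 0.20 (adjusted p = 1.5e-05). Eef2kmt, a methyltransferase of eEF2, had 14 and 4 UMIs in colonocyte-like barcodes, 5.11 and 4.13 CPM, against 16.04 to 44.9 CPM elsewhere (fold -2.17 ± 0.35, adjusted p = 1.5e-07). Eif2c5, which the rule takes in by its symbol and to which no role is given here, had 29 UMIs and was not called.

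**Figure D4:**
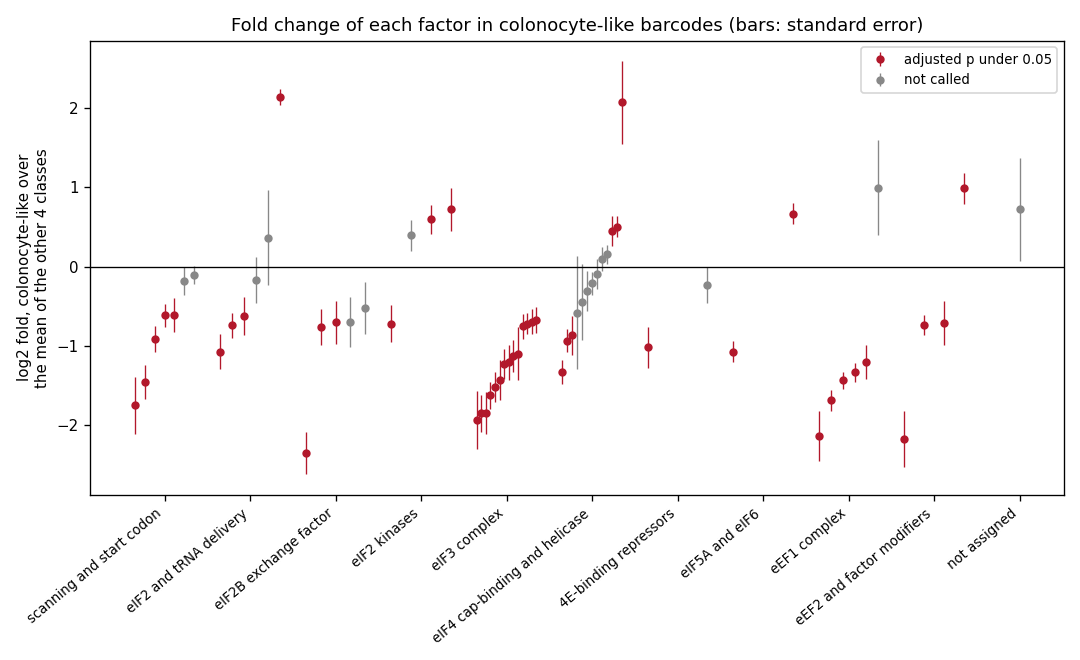
Log2 fold change of 64 factors in colonocyte-like barcodes over the mean of the other 4 classes (y axis), by role (x axis), with standard errors; Eif4ebp3, with 26 UMIs, is not drawn. Red points have an adjusted p under 0.05. All 14 eIF3 genes lie below 0, and Eif2s2 stands at 2.14.

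Without the eIF3 and eEF1 groups, 20 of the other 45 factors were lower and 9 higher in colonocyte-like barcodes, with a median of -0.52. Of all tested genes 18.5% were lower and 21% higher, so that the higher count was near the share of all genes. Leaving out the shallow colonocyte-like cluster (median of 1782 UMIs and 11.4% mitochondrial), an alternative chosen after seeing the data, gave 38 lower and 8 higher factors in all. At equal depth the counts were 35 lower and 4 higher.

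Progenitor-like and colonocyte-like barcodes were also compared directly. Of 65 factors 35 were higher and 3 lower in progenitor-like barcodes, where 27.8% of all tested genes were called (13.2% higher and 14.6% lower), and the median difference was 0.82 against -0.07 over all genes. The largest difference among the called factors was 2.46 ± 0.37 for Eef1e1 (adjusted p = 2.6e-08), followed in size by -2.38 ± 0.15 for Eif2s2, 2.24 ± 0.32 for Eif2b1, 2.16 ± 0.44 for Eef2kmt and 2.01 ± 0.45 for Eif3j2. Eif3b differed by 2.00 ± 0.28, Eif1ax by 1.97 ± 0.25 and Eef1g by 1.92 ± 0.16. The 3 factors that were lower in progenitor-like barcodes were Eif2s2, Eif4a2 and Eif6.

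Deep crypt secretory-like and goblet-like barcodes, the 2 secretory classes, were compared in the same way. Of 65 factors 20 were higher and 3 lower in deep crypt secretory-like barcodes, where 15% of all tested genes were called (6.84% higher and 8.12% lower), with a median of 0.37 against 0.01. Without the block 5 were higher and 1 lower, and without scaling factors 35 were higher and 1 lower. Of the eIF3 genes 10 of 14 were higher, and 1 of 14 without the block. The differences that stood under both were those of Eef1a1 (1.02 ± 0.13, adjusted p = 6e-10), Eef1b2 (1.04 ± 0.15), Eef1g (0.99 ± 0.15), Eef2 (1.00 ± 0.16), Eif3m (1.24 ± 0.29) and Eif2s2 (-2.05 ± 0.15, adjusted p = 3.4e-20). The 3 lower factors were Eif2s2, Eif6 (-0.65 ± 0.18) and Eif2ak2 (-0.90 ± 0.27).

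The 2 goblet-like clusters had different levels of several factors, which were not tested. Eef1a1, Eef1b2, Eef1g and Eif2b1 were lower in both libraries of the larger cluster, led by Clca1 and Fcgbp, than in the smaller one, led by Scin and Best2, as given above. Eif2s2 had the reverse order, at 1484 and 1270.3 against 803 and 602 CPM. Eif5a stood at 219 and 167 against 381 and 379 CPM. The smaller cluster also had a deep crypt secretory marker score of 1.55, against 0.42 in the larger one, and the part of those cells in these values was not tested. Without the smaller cluster, an alternative chosen after seeing the data, 22 factors were lower and 3 higher in goblet-like barcodes.

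Other genes of translation and its control were read from lists, chosen like the factor genes with earlier results of these data known, and are given for colonocyte-like barcodes first, where 18.5% of all tested genes were lower and 21% higher. Of the 93 genes tested with a ribosomal protein symbol (Rpl or Rps and a digit), 77 were lower and 1 higher, with a median of -1.40. These counts include other genes that the symbol rule takes in, such as Rps19bp1 and Rps2-ps6. Rpl12 (-2.30 ± 0.14) and Rpl5 (-2.21 ± 0.14) had the largest folds. The 8 factors whose mRNAs are known to carry a terminal oligopyrimidine tract, by which mTORC1 governs their translation, were all lower, with a median of -1.27. They are among the factors counted above, so that their values add no separate result. Of 6 genes of poly(A)-binding proteins and their partners 6 were lower, among them Paip2b, an inhibitor (-1.94 ± 0.42), and Pabpc4 (-1.65 ± 0.27). Of 20 aminoacyl-tRNA synthetases 15 were lower and none higher, with Iars (-2.15 ± 0.31) and Mars (-1.98 ± 0.35) the largest. Termination and recycling genes were lower in 5 of 8 cases and higher in 1. Abce1, which splits ribosomes after termination, fell from 95.4 and 69.3 CPM in progenitor-like to 6.93 and 5.16 in colonocyte-like barcodes, a colonocyte fold of -2.86 ± 0.29 (adjusted p = 1e-14). The next 3 lists had shares of called genes near or below the 39.5% of all genes. All of their calls were in the lower direction, in which 18.5% of all genes were called. Of 15 mTORC1 and cap regulation genes 6 were lower, led by Rps6 (-1.95 ± 0.14) and the mTORC1 inhibitor Akt1s1 (-1.72 ± 0.26). Rps6 is also counted among the ribosomal protein genes. Hypusine and diphthamide enzymes, which modify eIF5A and eEF2, were lower in 3 of 9 cases, among them Dohh (-1.06 ± 0.27) and Dph3 (-1.01 ± 0.22), and mitochondrial translation factors in 3 of 10, led by Tsfm (-1.27 ± 0.28).

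The list of the eIF2 stress response differed in its order of classes. In goblet-like barcodes 7 of its 11 tested genes were higher and none lower (11.6% of all tested genes higher and 6.9% lower), with a median of 0.75. Counts of all the lists were taken with scaling factors and the library block only. By CPM some listed genes were not highest in goblet-like barcodes. Among them, Cebpg stood at 117 and 116 CPM there and at 135 and 133 in colonocyte-like ones. In colonocyte-like barcodes 2 were higher and 3 lower, numbers near the shares of all tested genes (21% higher and 18.5% lower). Chac1, a target of this response, had 14.4 and 12.5 CPM in goblet-like barcodes and 0 to 5.05 elsewhere (goblet fold 2.85 ± 0.53, adjusted p = 5.3e-06). Ppp1r15a, the inducible subunit of an eIF2 phosphatase, stood at 51.6 and 50.3 CPM in deep crypt secretory-like and 18.3 and 37.4 in goblet-like barcodes, against 5.77 to 29.1 in progenitor-like and cycling-like and 5.84 and 5.16 in colonocyte-like ones (deep crypt secretory fold 1.76 ± 0.26, adjusted p = 4.5e-08). Atf4, the transcription factor whose translation rises when eIF2 is phosphorylated, stood at 77.4 and 90.5 CPM in progenitor-like, 128 and 169 in cycling-like, 187 and 327 in deep crypt secretory-like, 159.9 and 148 in goblet-like and 59.8 and 69.2 in colonocyte-like barcodes. It was thus lowest in colonocyte-like and next lowest in progenitor-like barcodes, where its scaled fold was -0.93 ± 0.19 (adjusted p = 8.3e-05). Asns, asparagine synthetase, stood at 4.38 and 7.22 CPM in colonocyte-like barcodes and at 32.1 to 67.5 elsewhere (colonocyte fold -2.73 ± 0.33, adjusted p = 6.6e-12). Wars, the tryptophanyl-tRNA synthetase gene, was higher in goblet-like (1.12 ± 0.13, adjusted p = 2.3e-11) and lower in progenitor-like barcodes (-0.89 ± 0.16, adjusted p = 7.6e-06). In CPM both secretory classes overlapped, at 313 and 339 in goblet-like and 306 and 324 in deep crypt secretory-like barcodes. The other classes stood at 132 to 224 CPM.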

How the data were processed

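Single cells of mouse colonic epithelium, with K562 cells added, were profiled by inDrop and CEL-Seq in 2 libraries. The deposited tables hold whole-number UMI counts per gene and barcode, without normalization, per the file headers and values. Reads were handled with GRCh38 and GRCm38, per the submitters' processing notes. No source used here gives the aligner, the annotation, the strand setting or the barcode filter. Mouse gene sequences and coordinates were not used here. The factor genes, gene lists and tests were chosen with earlier results of these data known.

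Barcodes with at least 500 UMIs and 250 genes were kept, which removed 0, and the 5% with the highest simulated-doublet score were left out of each library (87 and 33). The number of barcodes of one library with counts identical to a barcode of the other was 0. Of 25504 genes 12662 served for clustering (1500 variable genes, 30 components, 15 neighbours, Leiden resolution 1; Python 3.11.15, leidenalg 0.10.2) and 12842, including all factors and listed genes, for readout. Related genes lie on both sides, so that tests are not independent of the clustering. Of 1651 and 631 clustered barcodes, 1351 and 407 fell into the 5 classes. Clusters took a name at a marker score of at least 0.75 with at least 3 markers, under a rule settled after the clusters had been seen and before any test.

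UMIs were summed per library and class. Readout genes with at least 20 UMIs over the 10 sums (8100) were tested with edgeR 4.0.16 (glmQLFTest, TMM, library as block, R 4.3.3), with 4 residual degrees of freedom. The block removes the difference between libraries that all classes share, so that the residual is how classes deviate by library. The spread of each gene was moderated by that of other genes, with a median of 84.46 prior degrees of freedom. Small p-values thus rest largely on this shared spread. The pairing comes from construction, and deviations of same-library sums correlated at 0.27 to 0.44 over 10 pairs of classes (3401 genes). The test was tried on simulated data. Values are printed for factors called with a log2 fold of at least 1 in any of 7 comparisons (up to 30), the 10 most abundant and those under the filter; others are marked as named after their values were seen. Alternatives were no scaling factors, DESeq2 1.42.0, no filter, no block, other barcodes summed as reference, no doublet removal, Leiden resolution 0.5, barcodes over 10% mitochondrial left out, sums at equal depth, each library alone, and 2 chosen after seeing the data.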

Additional observations from a re-analysis of the deposited data

How the results depend on the processing

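The pairing by library decided most of the counts outside colonocyte-like barcodes. Without the replicate block the number of factors called was 4 of 65 in progenitor-like (20 with it), 10 in cycling-like (26), 11 in deep crypt secretory-like (25) and 3 in goblet-like barcodes (13), and 6 between deep crypt secretory-like and goblet-like barcodes (23). Without scaling factors it was 40 in cycling-like and 33 in goblet-like barcodes and 36 between the secretory classes. That moved the higher share of calls from 23.1% to 6.06% in goblet-like barcodes and from 87.0% to 97.2% between the secretory classes, and DESeq2 gave 33.3% in goblet-like barcodes. Without doublet removal 27 factors were called in goblet-like barcodes, and 25 without the smaller goblet-like cluster. The cause was not tested. The other totals of called factors in the 7 comparisons stayed within 1.5 times, but some counts by direction moved more. Among these, in colonocyte-like barcodes 9 higher factors became 5 without scaling factors and 4 at equal depth, and in progenitor-like barcodes 17 became 27 without scaling factors and 11 with DESeq2 or no filter, and with DESeq2 the 23 higher factors in deep crypt secretory-like barcodes became 15 and the 10 lower in goblet-like barcodes 6. Alternative values were compared for 34 named factors, each in its comparison of largest size. Of 399 values, 378 kept direction and call, or moved by less than 1 SD where there was no test. Of the rest, 9 calls were lost, 3 were gained, 1 uncalled value reversed and 8 values moved, 7 of them without replicate 1 and 1 without replicate 2. The 378 include 27 values without replicate 1 and 33 without replicate 2. Their SD came from the same 2 single-library values, so that passing was nearly fixed by arithmetic. Those values therefore say little about stability. Eif1 in goblet-like barcodes, not called, turned to -0.0058 without scaling factors. With 1 library left out no residual degrees of freedom remain, so folds had no test. At Leiden resolution 0.5 progenitor-like and cycling-like barcodes fell into 1 cluster and gave no progenitor-like values. UMI depth limits 8 factors with under 100 UMIs over all sums.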

Other observations

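Outside the 5 classes, the T cell-like cluster (56 and 6 barcodes) gave the factors 1.53% and 1.91% of its UMIs, with Eef1a1 at 4439 and 6655 CPM and Eif2s2 at 418 and 887 CPM. The tuft-like cluster (9 and 3 barcodes) gave them 1.23% and 0.903%. A shallow unnamed cluster with 155 and 163 barcodes, whose medians were 1311 and 2145 UMIs, gave them 1.12% and 1.16%, between the crypt base classes and goblet-like barcodes. An unnamed cluster with a median of 44.1% mitochondrial UMIs (51 and 42 barcodes) gave them 0.558% and 0.447%. Barcodes left out for their doublet score gave them 1.01% and 1.15%.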
